A study of Drosophila melanogaster with 8 samples.

Results

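Cytochrome P450 genes were followed in the tumours of Drosophila larvae raised on a control diet (CD) or a high sucrose diet (HSD). Members were the gene rows whose FlyBase identifier carried a current symbol made of Cyp and a number, and 86 rows met this rule. Cyp1 and Cyp40 met it only through their symbols, since they encode cyclophilins, and they were set aside. The family analysed here was therefore 84 of the 15682 gene rows, 82 of them protein coding and 2 of them pseudogenes (Cyp6a15Psi and Cyp6t2Psi). Cyp6a21 was not analysed here, and steroidogenic P450 genes with other names (sad, dib, shd, spo and spok) were not counted as members.

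RNA was sequenced from 8 libraries of pooled, dissected larval eye disc tumours, 4 from animals on CD (0.15 M sucrose, dissected on day 8) and 4 from animals on HSD (1.0 M sucrose, day 14). All 8 libraries shared 1 genotype, ras1 G12V; csk-/-, which expresses an oncogenic Ras1 from a UAS transgene and lacks csk, the negative regulator of Src, through a stop allele. The altered cells were GFP-labelled MARCM clones made by an eyeless-driven FLP recombinase and driven by an actin-promoter Gal4, so the dissected tissue could also hold unaltered cells. No library here came from animals without tumours. Age at dissection went wholly with diet, and diet and age cannot be told apart. The study describes the libraries of a diet as biologically independent, and the labels do not say whether they came from separate cultures, so p-values measure the spread between these libraries. In bulk tissue, fewer cells of a type and less RNA per cell cannot be told apart.

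Cytochromes P450 are haem-containing monooxygenases that insert an oxygen atom into lipids, steroid hormones, plant toxins and insecticides. The microsomal enzymes take electrons from the reductase Cpr, sometimes by way of cytochrome b5, and the mitochondrial ones take them from a ferredoxin. Insect P450 genes fall into the CYP2, CYP3, CYP4 and mitochondrial clans. The CYP2 and mitochondrial clans include makers and breakers of ecdysone, whereas the CYP3 and CYP4 clans hold large families that arose by tandem duplication and include many detoxifying enzymes.

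Total counts ran from 11558860 to 19963565 per library, and levels are given as CPM (counts scaled to a library of 1000000 counts), with library sizes adjusted for composition by TMM (trimmed means of M values). The eye disc label was met by its markers, all 8 of which were counted in every library, with 6 of the 8 lower in HSD. Libraries were not alike in traces of other tissues. Salivary gland markers summed to 4658 CPM in CD replicate 1 and to between 45.2 and 403 CPM in the other 7 libraries. Midgut markers summed to 245 CPM in CD replicate 1, to 299.6 CPM in HSD replicate 4 and to at most 67.6 CPM elsewhere. Fat body markers were highest in HSD replicate 4, at 3427 CPM against 856 to 2387 CPM in the rest. CD replicate 1 was the highest CD library for 21 of the 49 P450 genes that could be tested (42.9%), against 33.4% of all genes tested. HSD replicate 4 was the highest HSD library for 22 of the 49 (44.9%), against 28.4%. The part of these tissues in the P450 values below was not tested, and calls are also given without these libraries where that altered them.

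P450 transcripts were a small share of the tumour RNA on both diets. The family took 0.0563%, 0.0468%, 0.0467% and 0.0483% of all counts in CD replicates 1 to 4, and 0.06%, 0.0618%, 0.0563% and 0.0583% in HSD replicates 1 to 4. CD replicate 1 thus reached the share of the lowest HSD library. On the CPM scale the summed level was 536, 449, 449 and 458 in CD and 630.3, 662, 595 and 593 in HSD, so the diets did not overlap. The means were 473 ± 42.4 CPM (SD, n = 4) in CD and 620.3 ± 32.9 CPM (SD, n = 4) in HSD, a ratio of 1.31 or 0.39 on the log2 scale. This ratio depended on the scaling and was 0.04 on the log2 scale when libraries were set equal by ribosomal protein genes.

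The summed levels of the clans differed in how far the diets lay apart. The CYP4 clan (32 genes) summed to 183 ± 14.8 CPM in CD and 284 ± 30.3 CPM in HSD (SD, n = 4 each), 1.55 times as much. The CYP3 clan (39 genes) went from 244 ± 11.9 to 278 ± 21.2 CPM, a ratio of 1.14, and its libraries overlapped between diets. The mitochondrial clan (9 genes) stood at 29.2 ± 7.3 and 31.2 ± 4.49 CPM. The CYP2 clan (4 genes) stood at 17.2 ± 11.3 and 27.7 ± 3.94 CPM, and a single gene, Cyp18a1, gave 89.5% of it in CD and 97.2% in HSD. A single gene also dominated the CYP4 clan, where Cyp4p2 gave 40.4% of the level in CD and 55.7% in HSD. These sums were not tested.

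**Figure D1:**
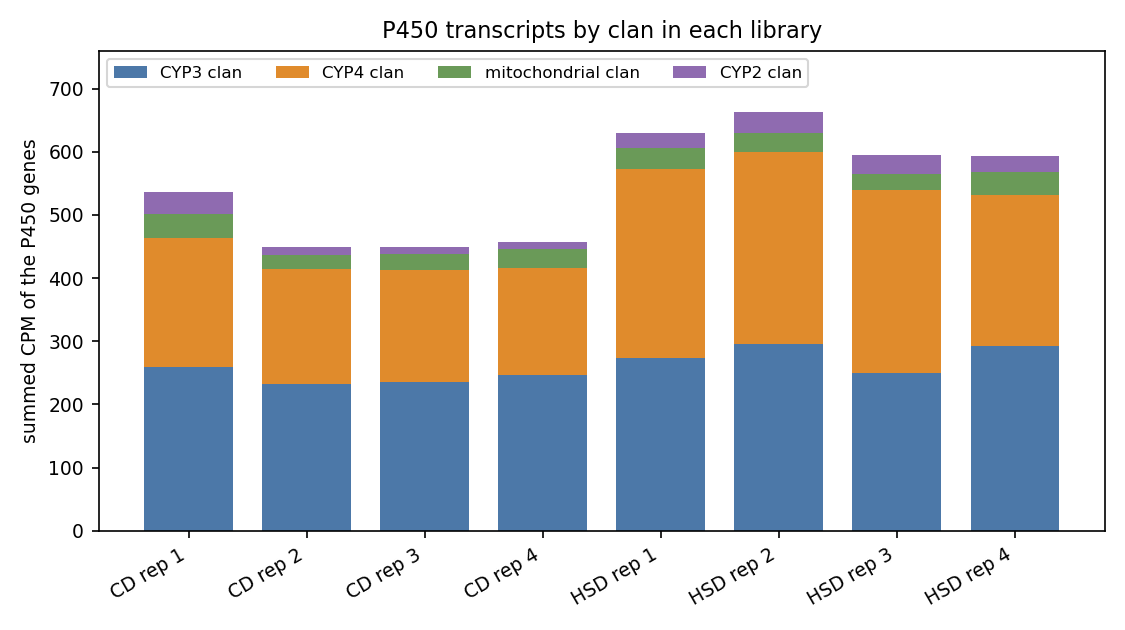
Summed CPM of the P450 genes in each of the 8 libraries, stacked by clan, with 1 bar per library. The 4 HSD bars stand between 593 and 662 CPM and the 4 CD bars between 449 and 536 CPM, and most of the added height is in the CYP4 clan.

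Of the 84 members, 49 passed the filter on low counts and were tested. They were expressed at low levels, with a median of 4.58 CPM over the 8 libraries, against 36.5 CPM over all 9257 genes tested. In HSD, 13 of the 49 were higher (26.5%) and 7 were lower (14.3%), at an adjusted p under 0.05 in edgeR's quasi-likelihood test. Over all genes tested, 25.9% were higher and 26.2% were lower. The share of P450 genes that rose was thus near the background, and the share that fell was below it. At a change of at least 2-fold, 10 members were higher (20.4%, against 7.14% of all genes) and 7 were lower (14.3%, against 14.6%). The 10 include Cyp4e3, which passed the filter on low counts only through its HSD libraries. The shares over all genes were not matched for level, so they do not show whether falls were rarer or large rises more common among members. The median log2 fold change of the 49 was 0.11, against 0.00 over all genes, and it moved to 0.62 without CD replicate 1, to -0.01 under total counts alone and to -0.21 under ribosomal protein scaling. Of the 49 members, 16 were called with no overlap between diets (32.7%), against 47.7% of all genes tested. These 16 were 80% of the 20 members called, against 91.5% of all genes called, and Cyp4aa1, Cyp12b2, Cyp28d1 and Cyp12a4 overlapped.

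By clan, the CYP3 genes tested divided into 6 higher (25%), 3 lower (12.5%) and 15 that did not pass. The CYP4 genes divided into 5 higher (31.2%), 2 lower (12.5%) and 9 that did not pass. The mitochondrial genes divided into 2 higher, 2 lower (28.6% each) and 3 that did not pass, and neither of the 2 CYP2 genes tested passed. Over all genes tested, 25.9% were higher and 26.2% were lower, and the clan counts were not tested against those shares. Precision followed the level. Among the 13 members with a mean of at least 10 CPM, 9 were called (69.2%, against 56.2% of all genes at that level) and the median standard error was 0.18 on the log2 scale. Among the 36 below 10 CPM, 11 were called (30.6%, against 38.8%) and the median standard error was 0.77, so the 29 members that did not pass, whose log2 fold changes ran from -1.83 to 2.55, were not shown to be unchanged.

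**Figure D2:**
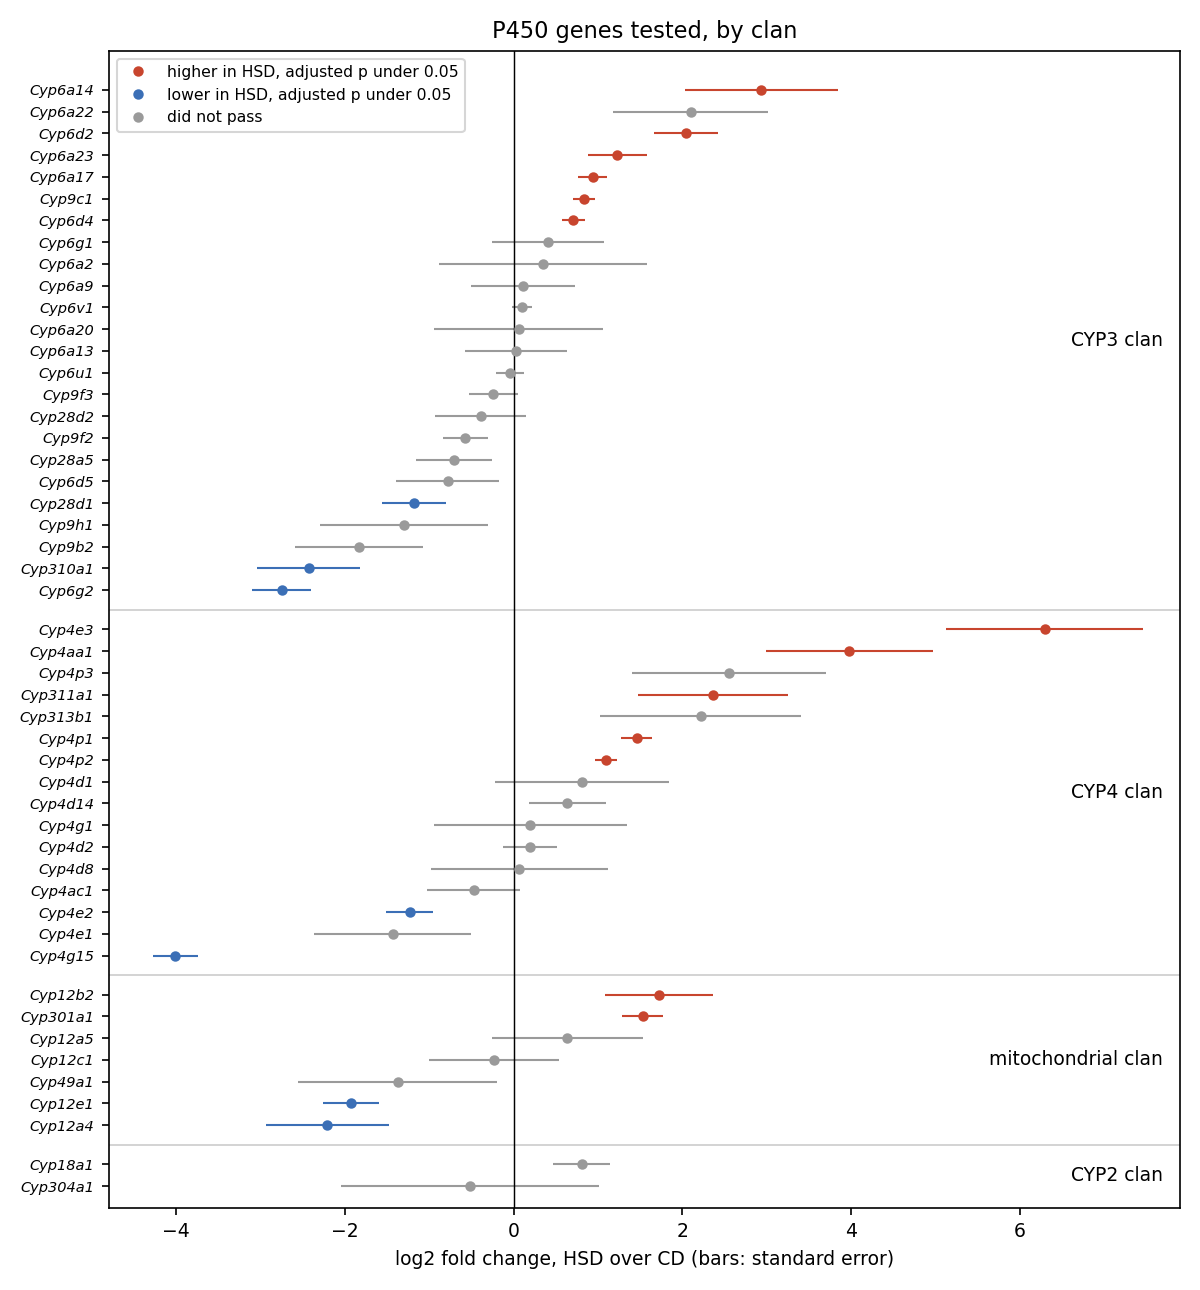
Log2 fold change, HSD over CD, of the 49 P450 genes tested, grouped by clan, with bars of 1 standard error and colours for the 13 higher, the 7 lower and the 29 that did not pass. Cyp4e3 at 6.30 and Cyp4g15 at -4.01 stand at the ends, both in the CYP4 clan.

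Levels between genes were compared per kb of exon. Cyp4p2 had the highest level on both diets, with a mean of 41.6 CPM per kb in CD and 89 CPM per kb in HSD. Over all 8 libraries it was followed by Cyp4p1 (23.3 CPM per kb), Cyp6a17 (23.2), Cyp9c1 (17.4), Cyp6v1 (15.1) and Cyp6u1 (13.7). These 6 genes gave 45.7% of the family's CPM in CD and 61.5% in HSD. The order below Cyp4p2 differed between diets. Cyp4g15 was ranked 2 in CD at 16.1 CPM per kb and 33 in HSD at 1 CPM per kb, whereas Cyp4p1 went from rank 7 to rank 2. Cyp4e3 went from rank 68, at 0.0754 CPM per kb, to rank 10, at 6.91 CPM per kb.

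**Figure D3:**
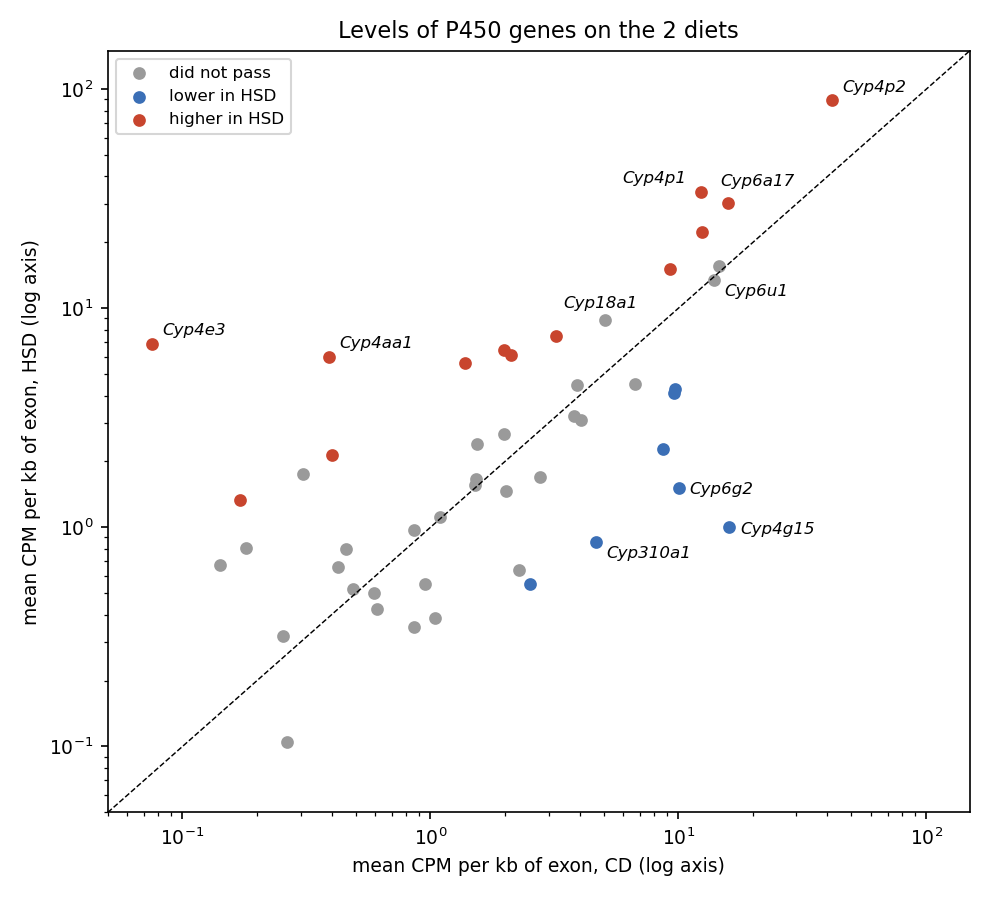
Mean level of each P450 gene tested in CD (horizontal) and in HSD (vertical), in CPM per kb of exon on log axes, with the line of equal levels dashed. Cyp4p2 lies at the top right at 41.6 and 89 CPM per kb, Cyp4e3 far above the line and Cyp4g15 far below it.

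The Cyp4p genes, 3 neighbours within 2R:9237512-9244410 (BDGP6), carried most of the net rise in the family's summed CPM. Other members rose as well, and falls such as that of Cyp4g15 offset part of the gains. Cyp4p2 measured 69.5, 79.5, 72.1 and 74.2 CPM in CD and 178, 162, 178 and 114 CPM in HSD. Every HSD library stood above every CD library, with HSD replicate 4 the lowest of its diet. The log2 fold change was 1.10 (adjusted p = 4.30e-05 in edgeR, SE 0.13). Most tracheal markers were also higher in HSD. Of the 7 tested, 5 were higher and 2 (Cht5 and Gasp) were lower, and none was at 0. Their sum was 2082 to 2257 CPM in CD and 2910.1 to 3657 CPM in HSD, with HSD replicate 4 again the lowest of its diet. Of the markers that rose, verm, serp, kkv and uif were also lowest in that HSD library. The marker trh was lowest in HSD replicate 3 instead, at 13.9 CPM against 27.1 CPM in HSD replicate 4. The listed marker btl was not analysed here. Sums of haemocyte markers (402 to 474 CPM in CD, 578 to 713 CPM in HSD) were also higher in HSD without overlap. So were those of muscle markers (1015 to 1142 CPM in CD, 1195 to 1228 CPM in HSD), and both were lowest among HSD libraries in replicate 1. Of the 8 haemocyte markers tested 1 was higher and 2 were lower, and of the 7 muscle markers 2 were higher and 3 were lower. The part of tracheal or other cells in the rise was not tested. Cyp4p2 alone made up 15.6% of the family's CPM in CD and 25.5% in HSD.

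Cyp4p1, the next gene along, measured 27.3, 19.2, 18.2 and 18.7 CPM in CD and 61.3, 68.8, 56.7 and 42.7 CPM in HSD. The diets did not overlap, CD replicate 1 was the highest CD library and HSD replicate 4 was again the lowest HSD library. Its log2 fold change was 1.46 (adjusted p = 4.83e-05, SE 0.18). Cyp4p3 was scarce, at 0.907, 0, 1.13 and 0 CPM in CD and 3.36, 1.66, 2.33 and 4.4 CPM in HSD. It did not overlap between diets, but its log2 fold change of 2.55 (SE 1.15) did not pass (adjusted p = 0.0869 in edgeR). It passed with DESeq2 (adjusted p = 0.0341) and with limma-voom (adjusted p = 0.016).

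Cyp4e3, on chromosome arm 2L, is tied to permethrin tolerance in the Malpighian tubule. It measured 0, 0.226, 0 and 0.319 CPM in CD, which is at most 6 counts in a library, and 1.33, 15.6, 3.5 and 29.5 CPM in HSD. All HSD libraries were above all CD libraries, but they were spread widely among themselves, with HSD replicates 2 and 4 high and replicates 1 and 3 low. In log2 terms the fold change was 6.30 (adjusted p = 0.000963, SE 1.17). It was 5.46 without HSD replicate 4 and 7.08 without CD replicate 4, and did not pass with limma-voom (adjusted p = 0.0919). Cyp4e3 passed the filter on low counts only through its HSD libraries, so it had to differ to be tested. Malpighian tubule markers summed to 17.3 to 31.3 CPM in CD and 14.6 to 38.3 CPM in HSD. Of the 3 of these 5 markers tested, 1 was higher and 2 were lower, and Smvt was at 0 throughout. Uro, the uricase of the tubule, was at 12.9 CPM in HSD replicate 4 but at 0.322 CPM in HSD replicate 2, the other library with a high Cyp4e3 level. Their part in the rise was not tested.

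Cyp4aa1 rose with 1 library apart. It measured 1.57, 0, 0.867 and 0.85 CPM in CD and 19.6, 16.6, 13.7 and 0.865 CPM in HSD. HSD replicate 4 lay within the CD range, and the other HSD libraries lay far above it. The log2 fold change was 3.98 (adjusted p = 0.00598, SE 0.99), it did not pass with limma-voom (adjusted p = 0.104), and it was 4.88 with both HSD replicate 4 and CD replicate 1 left out. Cyp311a1, which acts in the phospholipid make-up of midgut cells, was lower in level, at 0, 0.733, 0.267 and 1.43 CPM in CD and 3.89, 2.9, 1.94 and 4.32 CPM in HSD. Its log2 fold change of 2.37 (SE 0.89) lay near the threshold (adjusted p = 0.0453), did not pass on leaving out any 1 library other than CD replicate 1 or 4, and was 3.24 without CD replicate 4. Of the libraries with the most midgut marker RNA, CD replicate 1 held no Cyp311a1 count and HSD replicate 4 held 4.32 CPM. The part of midgut cells in the Cyp311a1 values was not tested.

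Cyp4g15, on the X chromosome, is known from the larval brain and showed the deepest fall of the members tested. It measured 48.9, 40.3, 45.4 and 35.4 CPM in CD and 1.65, 3.86, 1.89 and 3.17 CPM in HSD. The diets were wide apart, and no HSD library exceeded 3.86 CPM. Its log2 fold change was -4.01 (adjusted p = 9.57e-07 in edgeR, SE 0.27), a level 16.1-fold lower in HSD, and it lay between -4.34 and -3.83 under every alternative run. Most markers of the nervous system were also lower, and so were most eye disc markers. All 8 neuronal markers were lower in HSD, and their sum was 1772 to 2187 CPM in CD and 89.1 to 154 CPM in HSD, with Gad1 at 0 in HSD replicates 1 and 4 and ChAT at 0 in HSD replicate 4. Of 8 glial markers 5 were lower, among them repo, the glial transcription factor, 1 (moody) was higher, and nrv2 and Indy did not pass. The glial sums were 757 to 834 CPM in CD and 599 to 690.5 CPM in HSD. Of the 8 eye disc markers 6 were lower, with gl at a log2 fold change of -2.27, and ey and Optix did not pass. The part of neurons, glia or eye disc cells in the fall of Cyp4g15 was not tested.

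Its relative Cyp4g1, the decarbonylase that makes cuticular hydrocarbons in oenocytes, did not pass. It measured 6.84, 0.113, 0.467 and 0.425 CPM in CD and 2.77, 4.08, 0.389 and 1.66 CPM in HSD. CD replicate 1 stood above all other libraries, and without it the log2 fold change was 2.73 (adjusted p = 0.0352 in edgeR) in place of 0.20 (adjusted p = 0.898, SE 1.14). The oenocyte gene FASN2, a fatty acid synthase, was at no more than 0.2 CPM in any CD library and at 0.8 to 2.02 CPM in HSD, and it was higher (adjusted p = 0.00419). FarO, the other oenocyte marker read, had 4 counts in HSD replicate 1 and none in the other 7 libraries, and FASN3 was not analysed here. The part of oenocytes in the Cyp4g1 values was not tested. Another gene of the clan, Cyp4e2, measured 20.1, 17.2, 15.8 and 19.5 CPM in CD and 4.91, 8.53, 5.67 and 11.9 CPM in HSD, with no overlap. Its log2 fold change was -1.23 (adjusted p = 0.0035, SE 0.28). Its neighbour on 2R, Cyp4e1, had a log2 fold change of -1.43 (SE 0.93) and did not pass (adjusted p = 0.224).

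In the CYP3 clan 6 of the 24 genes tested rose (25%, against 25.9% of all genes tested). Of these, 3 rose by at least 2-fold (Cyp6a14, Cyp6d2 and Cyp6a23). Cyp6a17, which acts in the mushroom body to set temperature preference, measured 30.01, 31.2, 21.9 and 26.7 CPM in CD and 47.7, 70.2, 48.4 and 44 CPM in HSD. The groups were separate, with a log2 fold change of 0.94 (adjusted p = 0.000778 in edgeR, SE 0.17). Cyp6a23, which lies next to it on 2R, measured 9.89, 5.47, 3.34 and 3.88 CPM in CD and 10.3, 16, 11.8 and 14.7 CPM in HSD. CD replicate 1 came close to HSD replicate 1, and the log2 fold change was 1.23 (adjusted p = 0.013, SE 0.35). It did not pass under ribosomal protein scaling (adjusted p = 0.0688).

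Of the other genes of that 2R cluster, Cyp6a22 had a log2 fold change of 2.10 (adjusted p = 0.0807, SE 0.92), Cyp6a9 one of 0.11 and Cyp6a20, known for its part in male aggression, one of 0.06 (adjusted p = 0.967, SE 1.00). Cyp6a20 measured 4.12, 1.52, 2.2 and 0 CPM in CD and 1.92, 3.65, 1.5 and 1.01 CPM in HSD, overlapping throughout. Cyp6a8, a lauric acid hydroxylase induced by barbiturates, reached at most 22 counts and was not tested. Cyp6a2, which metabolises insecticides, stayed under 1 CPM in every library and did not pass (log2 fold change 0.35, SE 1.23, adjusted p = 0.836). Cyp6a14, on another part of 2R, measured 0, 0.677, 1.13 and 0.212 CPM in CD and 4.48, 6.71, 1.89 and 2.74 CPM in HSD. Its log2 fold change was 2.94 (adjusted p = 0.0189, SE 0.91), and it did not pass without CD replicate 4 (2.70) or without HSD replicate 2 (2.56), and was 3.67 without CD replicate 3.

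Cyp9c1 was the next most abundant member of the clan to rise. It measured 18.2, 21.3, 21.6 and 26 CPM in CD and 43.7, 39.7, 37 and 35.7 CPM in HSD. The groups were well separated and tight, with a log2 fold change of 0.84 (adjusted p = 0.000351, SE 0.13). Of the 3 Cyp6d genes tested, named after their values were seen, Cyp6d4 and Cyp6d2 were separate between diets, whereas Cyp6d5 overlapped and did not pass (log2 fold change -0.78, SE 0.61, adjusted p = 0.317). Cyp6d4 measured 17.5, 16.1, 16.6 and 19.5 CPM in CD and 30.6, 32.6, 26.9 and 23.6 CPM in HSD, with a log2 fold change of 0.71 (adjusted p = 0.00187, SE 0.14) that did not pass under ribosomal protein scaling (0.35, adjusted p = 0.0814). Cyp6d2, linked to tolerance of camptothecin, measured 4.29, 1.81, 2.07 and 1.54 CPM in CD and 11, 9.98, 9.45 and 9.3 CPM in HSD, with a log2 fold change of 2.04 (adjusted p = 0.000955, SE 0.38).

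Cyp6v1 and Cyp6u1, both among the 6 most abundant members, did not pass. Cyp6v1 measured 36.8, 40.8, 46.1 and 52.5 CPM in CD and 48.2, 43.2, 44.6 and 52.8 CPM in HSD. Cyp6u1 measured 28.4, 34, 27.3 and 22.8 CPM in CD and 31.7, 22, 24.2 and 31.1 CPM in HSD. The groups overlapped for both genes, and the log2 fold changes were 0.10 (adjusted p = 0.541, SE 0.12) and -0.04 (adjusted p = 0.847, SE 0.17).

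The CYP3 genes that fell were Cyp6g2, Cyp310a1 and Cyp28d1. Cyp6g2, expressed in the corpora allata, where juvenile hormone is made, measured 20.4, 18.7, 26 and 15.3 CPM in CD and 2.72, 1.72, 2.33 and 5.26 CPM in HSD. HSD replicate 4 was the highest of its diet but still far under the lowest CD library. In log2 terms the fold change was -2.75 (adjusted p = 7.32e-05 in edgeR, SE 0.35). Markers of the prothoracic gland, which shares the larval ring gland with the corpora allata, summed to 444 to 602 CPM in CD and 327 to 371 CPM in HSD. Of the 5 tested, 4 were lower and 1 (mld) was higher, and spok was at 0 throughout. The HSD sum came mostly from Npc1a (mean 145 CPM) and mld (mean 169 CPM), with log2 fold changes of -0.71 and 0.55. The others, dib, sad and sro, fell further, by 2.73, 2.71 and 2.70 on the log2 scale. The part of ring gland tissue in the fall of Cyp6g2 was not tested. Cyp6g1, which overlaps Cyp6g2 on the opposite strand of 2R and is best known for DDT resistance, did not pass. It measured 1.32, 5.08, 3.94 and 6.11 CPM in CD and 2.88, 2.52, 2.78 and 13.9 CPM in HSD, with HSD replicate 4 alone high (log2 fold change 0.41, SE 0.66, adjusted p = 0.633). That library also had the highest sums of midgut, fat body and Malpighian tubule markers among the HSD libraries, and their part in the Cyp6g1 value was not tested. The difference between the Cyp6g genes was not tested either, and reads in the shared stretch could have been given to either gene.

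Cyp310a1, expressed in imaginal discs, measured 5.52, 7.73, 9.21 and 8.44 CPM in CD and 0.267, 2.04, 2.61 and 0.793 CPM in HSD. The groups were separate and the log2 fold change was -2.43 (adjusted p = 0.00647, SE 0.61). Cyp28d1, which is tied to nicotine resistance, measured 22.9, 8.58, 13.9 and 17.4 CPM in CD and 6.03, 5.64, 4.22 and 11.8 CPM in HSD. HSD replicate 4 exceeded CD replicate 2, and the log2 fold change was -1.18 (adjusted p = 0.0216, SE 0.38). The fall did not pass without CD replicate 1 (-0.92, adjusted p = 0.0692), nor without CD replicate 4 or any of HSD replicates 1, 2 and 3, at adjusted p-values between 0.0556 and 0.0652. Its neighbour on 2L, Cyp28d2, had a log2 fold change of -0.39 (adjusted p = 0.576, SE 0.54) and was set by CD replicate 1, at 15.4 CPM against 3.72 to 4.34 CPM in the other CD libraries.

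Cyp9b2, named after its values were seen, had a log2 fold change of -1.83 (SE 0.76) that did not pass (adjusted p = 0.0663). It measured 5.36, 1.35, 5.54 and 2.92 CPM in CD and 0.32, 0.859, 0.5 and 2.59 CPM in HSD, with HSD replicate 4 inside the CD range. Without that library it passed, at -2.74 (adjusted p = 0.0108), and without CD replicate 1 as well it was -2.52 (adjusted p = 0.0135). With all 8 libraries it passed in DESeq2 (adjusted p = 0.0224) and limma-voom (adjusted p = 0.0492).

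**Figure D4:**
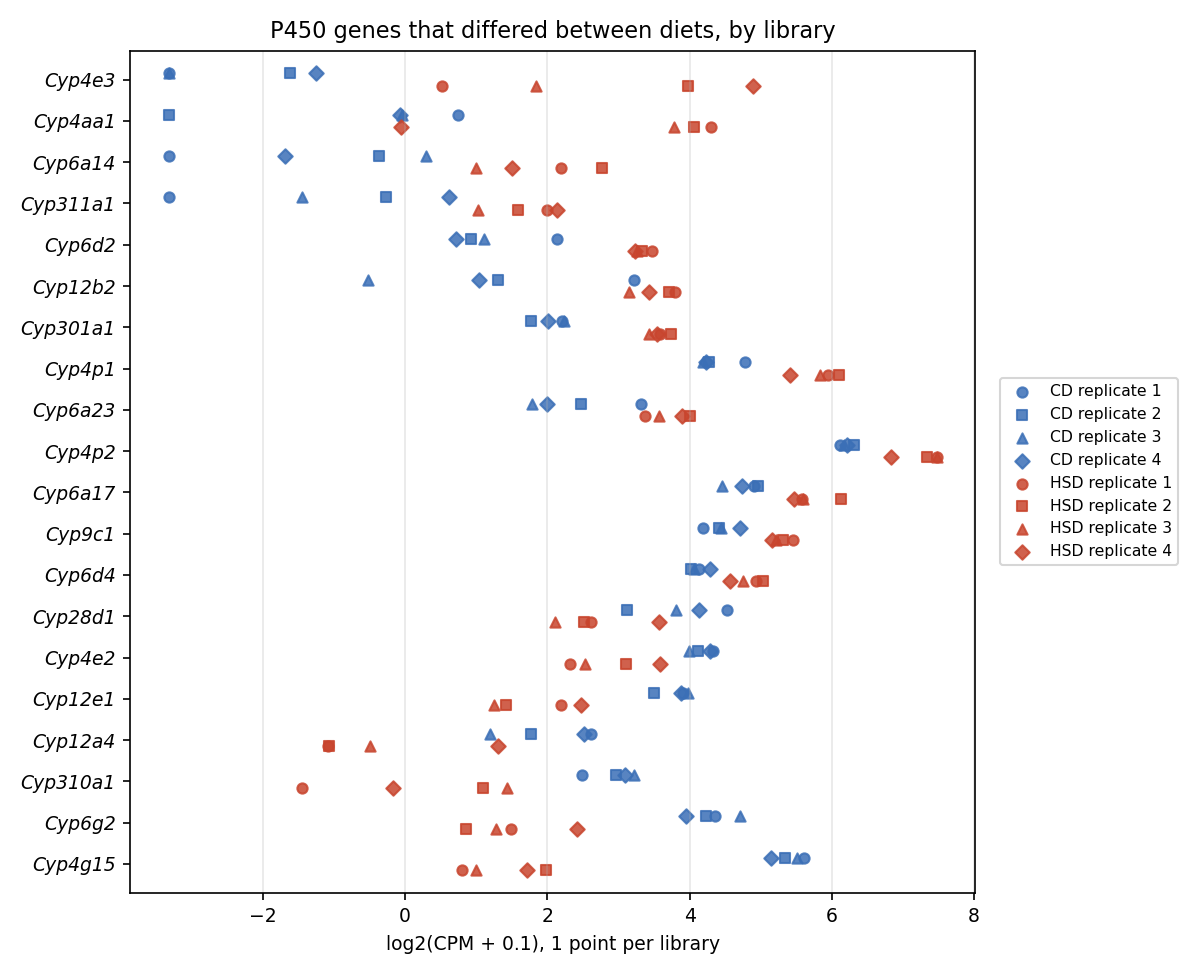
Level of each of the 20 P450 genes that passed in each library, as the log2 of CPM with a small constant added so that zeros can be drawn, with CD in blue, HSD in red and a marker shape per replicate. Groups are separate for 16 genes (80% of those called, against 91.5% over all genes called), and for Cyp4aa1 HSD replicate 4 sits among the CD libraries at 0.865 CPM.

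The 7 mitochondrial genes tested held 2 calls in each direction (28.6% each), near the shares over all genes (25.9% and 26.2%). Cyp301a1, needed for the adult cuticle, measured 4.53, 3.33, 4.6 and 3.93 CPM in CD and 11.9, 13.3, 10.7 and 11.6 CPM in HSD. The libraries of each diet lay close together and the diets were separate, with a log2 fold change of 1.53 (adjusted p = 0.000354 in edgeR, SE 0.24). Cyp12e1 measured 14.9, 11.2, 15.7 and 14.6 CPM in CD and 4.48, 2.58, 2.28 and 5.48 CPM in HSD, again with no overlap. Its log2 fold change was -1.93 (adjusted p = 0.000508, SE 0.33).

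The other calls of the clan were less steady. Cyp12b2, named after its values were seen, measured 9.23, 2.37, 0.6 and 1.96 CPM in CD and 13.8, 13, 8.78 and 10.7 CPM in HSD. CD replicate 1 lay among the HSD libraries. The log2 fold change was 1.72 (adjusted p = 0.0431, SE 0.64) and was 2.82 without CD replicate 1 (adjusted p = 0.000574), whereas on leaving out any 1 of the other 7 libraries it was between 1.40 and 1.84 and did not pass. Cyp12a4, linked to lufenuron resistance, measured 6.02, 3.33, 2.2 and 5.63 CPM in CD and 0.373, 0.376, 0.611 and 2.38 CPM in HSD. HSD replicate 4 exceeded CD replicate 3. The log2 fold change of -2.21 (adjusted p = 0.0255, SE 0.73) became -3.22 without HSD replicate 4, and did not pass without CD replicates 1 or 4 or HSD replicates 1, 2 or 3, at adjusted p-values between 0.0558 and 0.0753. Its neighbour on 3R, Cyp12a5, did not pass (log2 fold change 0.64, SE 0.90, adjusted p = 0.579).

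Cyp18a1, the hydroxylase that inactivates ecdysteroids, was the main CYP2 gene. It measured 29.8, 12, 9.94 and 10.1 CPM in CD and 23.6, 31.6, 29.3 and 23.1 CPM in HSD. CD replicate 1 lay within the HSD range and the other CD libraries were all below it. The log2 fold change of 0.81 (SE 0.34) did not pass in edgeR (adjusted p = 0.0658). It passed without CD replicate 1, at 1.35 (adjusted p = 0.000104), and with all 8 libraries in DESeq2 (adjusted p = 0.0348) and limma-voom (adjusted p = 0.00289). CD replicate 1 was also the library with the highest salivary gland marker sum, at 4658 CPM. Among CD libraries it had the highest sums of midgut (245 CPM), fat body (2387 CPM) and Malpighian tubule (31.3 CPM) markers as well. The part of these tissues in its Cyp18a1 level was not tested.

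The remaining 35 members were too scarce to test. Of these, 33 were coding, 19 had more than 10 counts in some library, and the highest count was 52, for Cyp312a1 in CD replicate 4. Cyp12d1-d, Cyp313a1 and Cyp6a15Psi had no count in any library, which allows up to 3 counts in each. Among those with a known role, Cyp303a1, needed in external sense organs, had 12 counts in CD replicate 4 and none elsewhere. Cyp6t3, an ecdysone synthesis gene, had 5 counts in HSD replicate 2 and none elsewhere. Cyp305a1 had 16, 3, 14 and 0 counts in CD and 0, 3, 0 and 0 in HSD, and Cyp4d21, a courtship gene, had at most 4 counts. Cyp12d1-p, inducible by DDT in flies, had at most 29 counts and is a near-identical copy of Cyp12d1-d, so the split of reads between them is uncertain.

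Many members lie in tandem. By a gap of less than 10000 bp between neighbours, 45 of the members fell into 16 groups, and 34 of all 84 were on 2R. Of the 9 groups with at least 2 tested genes, none held calls in both directions and 2 held more than 1 call in the same direction, the Cyp4p group and the Cyp6a17 group. The calls inside the other groups concerned at most 1 gene each. Neighbours of similar sequence share reads that align to both, and the way such reads were counted was not stated.

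Overlap with other genes or with transposable element insertions touched 17 of the 49 members tested and 9 of the 20 called. For Cyp12a4, Cyp6a14 and Cyp6a22 the only overlap was with such an insertion. The library kit marks strand, but whether the counting used it was not stated. Of the antisense partners measured, Jabba (on Cyp12b2) had a log2 fold change of -0.34 and Ak6 (on Cyp301a1) one of 0.02, and neither passed (adjusted p = 0.559 and 0.908). The partner nsr (on Cyp6d2) was at no more than 1.17 CPM and asRNA:CR43787 (on Cyp9c1) at no more than 0.483 CPM. ND-B14.5A, which lies on Cyp4d14, was higher by 0.78 on the log2 scale (adjusted p = 0.000543), and Cyp4d14 itself did not pass (0.64, SE 0.46, adjusted p = 0.272). Strn-Mlck, which lies on Cyp4aa1, was not analysed here.

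Known or possible electron partners of P450 enzymes were tested from a list of 7. Of these, 3 were higher in HSD and none was lower, where 25.9% of all genes tested were higher and 26.2% were lower. The list is short, and its counts were not tested against those shares. Cpr, the shared reductase of the microsomal enzymes, measured 128, 105, 97.7 and 92.2 CPM in CD and 196, 218, 173 and 154 CPM in HSD. The groups were separate, with a log2 fold change of 0.81 (adjusted p = 0.000327 in edgeR, SE 0.13). Cyt-b5-r, a cytochrome b5-like protein, rose by 1.71 (adjusted p = 0.00825, SE 0.45) and the ferredoxin Fdx1 by 0.80 (adjusted p = 0.0113, SE 0.22) on the log2 scale. For Fdx1 the diets overlapped, with CD replicate 1 at 14.9 CPM and HSD replicate 3 at 14.2 CPM. Whether Cyt-b5-r passes electrons to P450 enzymes was not tested. Cyt-b5 (0.18), the other ferredoxin Fdx2 (-0.27), the ferredoxin reductase dare (-0.22) and CG6664 (0.15) did not pass.

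Among 9 known or candidate regulators of P450 genes, 1 was higher and 4 were lower. Over all genes tested, 25.9% were higher and 26.2% were lower, and the regulator counts were not tested against those shares. The stress factor cnc, the fly Nrf2, was higher by 0.37 on the log2 scale (adjusted p = 0.00665, SE 0.09), whereas its partner maf-S and its inhibitor Keap1 did not pass, at 0.14 each. The xenobiotic receptor Hr96 had a log2 fold change of -0.36 and did not pass (adjusted p = 0.0945). The juvenile hormone receptor gce measured 20.1, 20.5, 24.2 and 26.2 CPM in CD and 1.55, 2.25, 2.17 and 5.33 CPM in HSD, a log2 fold change of -3.02 (adjusted p = 4.37e-05, SE 0.36). Its paralogue Met fell by 0.69 (adjusted p = 0.00127). Of the Ah receptor-like proteins, ss fell by 1.36 (adjusted p = 0.000403) and its partner tgo by 0.28 (adjusted p = 0.0294). For tgo the diets overlapped, with HSD replicate 2 at 120.3 CPM and CD replicate 4 at 119 CPM.

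Ecdysone-making P450 genes with other names were read alongside the family. The late-step enzyme sad measured 125, 170.1, 158 and 146 CPM in CD and 21.1, 7.78, 13.2 and 50.3 CPM in HSD, and fell by 2.71 on the log2 scale (adjusted p = 0.000557, SE 0.46). The step before it, dib, fell by 2.73 (adjusted p = 0.000196, SE 0.40). The 20-hydroxylase shd did not pass (-1.09, adjusted p = 0.133), and spo and spok had no count in any library. Both sad and dib are markers of the prothoracic gland, and the marker list given beside Cyp6g2 includes them. That list had 8 genes, of which 6 were read and phm and nvd were not analysed here. The part of gland tissue in these values was not tested.

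The cyclophilins set aside by name were abundant. Cyp1 measured 1483, 1405, 1477 and 1402 CPM in CD and 1947, 1818, 1908 and 1699 CPM in HSD, a log2 fold change of 0.35 (adjusted p = 0.000362 in edgeR, SE 0.06). Cyp40 had a log2 fold change of 0.12 (SE 0.10) and did not pass (adjusted p = 0.363). Counting them as members would have given 14 higher and 7 lower.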

How the data were processed

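Reads were trimmed by the authors with Trim Galore 0.4.4, aligned to dm3 with TopHat2 2.0.11 and counted by gene with featureCounts, per the submitters' processing notes and the study's methods. The deposited values were raw counts per gene, not normalised. Of 15682 identifiers, 15002 (95.7%) matched a current symbol and 680 did not. Gene positions and exon lengths came from BDGP6, and no coordinate was converted.

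Genes passing filterByExpr were scaled by TMM (trimmed means of M values) and compared by diet with the quasi-likelihood test of edgeR 4.0.16 (R 4.3.3), two-sided, and p-values were adjusted by Benjamini-Hochberg over the 9257 genes that passed. The standard error was the log2 fold change divided by the square root of F. DESeq2 1.42.0, limma 3.58.1 (voom), other scalings and filters, a replicate block and leaving out libraries were tried. The limit of 3 counts given for zeros covers counting error only.

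The members, clans and lists were chosen with earlier results of these data known. Values per library were given for up to 6 members in each direction with the largest changes at 10 CPM or more and no overlap, the 6 most abundant per kb, and those with listed roles. Other members were named after their values were seen.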

Additional observations from a re-analysis of the deposited data

Results flagged for a closer look

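In 6 of 98 groups of 4 libraries (49 genes on each diet), 1 library stood apart from the other 3, judged by the gap to its nearest neighbour divided by the group's range and set against Dixon's 95% critical value. Chance alone sets apart about 1 group in 20, or 4.9 of 98 here.

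CD replicate 1 was the library apart in 4 groups. It was the highest for Cyp18a1 (29.8 CPM against 9.94 to 12, gap ratio 0.834), for Cyp28d2 (15.4 CPM against 3.72 to 4.34, gap ratio 0.891) and for Cyp4p1 (27.3 CPM against 18.2 to 19.2, gap ratio 0.868). It was the lowest for Cyp49a1 (0 CPM against 0.867 to 1.13, gap ratio 0.893). HSD replicate 4 was the library apart in 2 groups, as the lowest for Cyp4aa1 (0.865 CPM against 13.7 to 19.6, gap ratio 0.881) and the highest for Cyp6g1 (13.9 CPM against 2.52 to 2.88, gap ratio 0.924).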

How the results depend on the processing

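Of the 20 members called, 11 were called under all 18 alternative fits, 9 were lost under at least 1, and none changed direction. Of the 29 others, 7 passed under at least 1 (Cyp18a1, Cyp9b2, Cyp4p3, Cyp4g1, Cyp6a22, Cyp313b1 and Cyp9f2). Members higher and lower in HSD (13 and 7) numbered 9 and 9 under ribosomal protein scaling, 11 and 7 under total counts, 16 and 8 with DESeq2 and 13 and 8 with limma-voom. On leaving out 1 library they ran from 10 to 16 and from 5 to 8, and without both CD replicate 1 and HSD replicate 4, a choice made after seeing the data, they were 14 and 8. Calls among the partners, the regulators and the steroid P450 genes with other names (3, 5 and 2, or 10 in all) ran from 9 to 11 on leaving out 1 library. The log2 ratio of summed family CPM (0.39) was 0.04 under ribosomal protein scaling, which moved the median of all genes to -0.35, and 0.36 to 0.46 on leaving out 1 library. Under total counts alone the median of all genes was -0.13 and that of the members -0.01. Of all genes called, 49.8% were higher in HSD, against 21% under ribosomal protein scaling and 38.1% under total counts.

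Libraries with the same replicate number did not deviate together (correlations -0.0613, -0.00423, 0.0748 and -0.152), so the numbers were not taken as pairs. With a replicate block, 13 members were higher and 7 lower, with Cyp18a1 gained (adjusted p = 0.0371) and Cyp311a1 lost (adjusted p = 0.0612), and 10 genes of the partner, regulator and steroid lists were called. Depth limits the 35 members not tested and the 22 of 392 library values at 0 among those tested.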
